A study of Homo sapiens with 12 samples.

Results

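The genes of the NF-kappaB transcription factor and of its feedback were analysed in RNA sequencing libraries of MCF10A, an immortalized mammary epithelial cell line of human origin that is not tumorigenic. The members are 10 genes chosen by name and role, with earlier results of these data known: the subunit genes RELA, REL, RELB, NFKB1 and NFKB2, the IkappaB family genes NFKBIA, NFKBIE and NFKBIZ, and the ubiquitin-system feedback genes TNFAIP3 and BIRC3. They are 10 of the 23459 genes in the count table, and all 10 were among the 14775 genes that passed the filter on low counts.

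All 12 libraries came from cells with a doxycycline-inducible allele of YAP5SA (iYAP5SA), a variant of the coactivator YAP that escapes inhibition by the Hippo kinases. The cells were infected with either an empty vector or a vector for overexpression of JUN, the AP-1 transcription factor, and received either 100 ng/ml doxycycline (Dox) or ethanol (EtOH), its solvent. The 4 groups hold 3 libraries each and are named by vector and treatment: vector EtOH and vector Dox for cells with the empty vector, JUN EtOH and JUN Dox for cells with the JUN vector. All groups grew in medium with horse serum, insulin, hydrocortisone, cholera toxin and EGF. No group received Dox without carrying the YAP5SA allele, so effects of Dox and of YAP5SA cannot be told apart. The study's methods list JUN vectors with an EF1a and with an SFFV promoter without saying which was used for these libraries, and whether the line is 1 clone is not given in the sources used here.

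NF-kappaB proteins form dimers of RELA, RELB or REL with p50 or p52, which are cut from the precursors encoded by NFKB1 and NFKB2. In resting cells, IkappaB proteins hold the dimers in the cytoplasm, and stimuli such as TNF, IL-1 or bacterial products activate the IkappaB kinase, which marks the inhibitors for degradation. The freed dimers then bind kappaB sites and switch on inflammatory and survival genes, among them the genes of several of their own inhibitors, so that the response limits itself. In the mammary gland, the pathway is known for its part in the growth of alveoli downstream of the receptor RANK. Its activity is set largely by protein degradation and nuclear entry, which RNA counts do not measure.

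The promoter windows of the feedback genes with the widest changes in RNA (NFKBIA, NFKBIZ, TNFAIP3 and BIRC3) are shown because feedback in this pathway is known to run through kappaB sites near gene starts. Each window is the RefSeq sequence on GRCh38.p14 from 250 bases before to 50 bases after the start of the gene, written 5′ to 3′ on the gene's strand, and the capitals mark matches to the kappaB consensus on either strand. The windows lie at chr14:35404700-35404999 (minus strand, NFKBIA), chr3:101827740-101828039 (plus strand, NFKBIZ), chr6:137867009-137867308 (plus strand, TNFAIP3) and chr11:102317234-102317533 (plus strand, BIRC3).
NFKBIA: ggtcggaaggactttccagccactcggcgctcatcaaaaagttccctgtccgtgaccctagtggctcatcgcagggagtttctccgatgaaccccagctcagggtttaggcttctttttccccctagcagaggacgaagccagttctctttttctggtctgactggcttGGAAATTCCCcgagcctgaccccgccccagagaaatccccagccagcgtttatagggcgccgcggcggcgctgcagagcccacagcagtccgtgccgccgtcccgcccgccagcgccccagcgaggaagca
NFKBIZ: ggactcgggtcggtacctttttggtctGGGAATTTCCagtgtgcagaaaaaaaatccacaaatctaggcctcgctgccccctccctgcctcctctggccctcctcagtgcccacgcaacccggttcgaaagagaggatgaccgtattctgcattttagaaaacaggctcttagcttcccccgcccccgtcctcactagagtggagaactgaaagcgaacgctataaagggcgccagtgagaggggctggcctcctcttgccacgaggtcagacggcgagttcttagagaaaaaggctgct
TNFAIP3: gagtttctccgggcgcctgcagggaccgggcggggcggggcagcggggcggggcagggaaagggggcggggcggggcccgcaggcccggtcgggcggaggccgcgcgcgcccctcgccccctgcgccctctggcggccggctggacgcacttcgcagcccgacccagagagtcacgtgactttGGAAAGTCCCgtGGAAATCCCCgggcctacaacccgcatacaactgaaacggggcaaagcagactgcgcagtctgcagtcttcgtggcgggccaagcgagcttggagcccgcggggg
BIRC3: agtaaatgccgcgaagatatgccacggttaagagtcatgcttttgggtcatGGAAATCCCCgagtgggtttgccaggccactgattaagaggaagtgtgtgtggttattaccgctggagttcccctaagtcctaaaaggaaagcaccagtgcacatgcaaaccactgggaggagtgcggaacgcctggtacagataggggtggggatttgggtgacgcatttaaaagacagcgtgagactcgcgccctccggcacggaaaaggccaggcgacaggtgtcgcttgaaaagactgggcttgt

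The matches begin at position -81 from the start of NFKBIA, at -223 for NFKBIZ, at -67 and -55 for TNFAIP3 and at -199 for BIRC3. TNFAIP3 had a pair of matches that lay side by side. Of the 10 members, 8 had a window in the RefSeq table, and 6 of the 8 held a match, with REL (-46) and NFKB1 (-49) as the others and none in the windows of RELA and NFKB2. Over all 27305 promoter windows of this length, 7.41% held a match. The AP-1 motif TGANTCA was found in 0 of the 8 windows and in 7.76% of all windows, and the TEAD motif GGAATG was found in 0 of the 8 and in 14.0% of all windows. Both strands were searched for each motif, and no match overlapped another. Such a match is a run of letters and not a measured binding site, and a window without one leaves the rest of the gene unsearched. The RefSeq start of NFKBIZ lies 21524 bases upstream of the start of the GENCODE canonical transcript, and the canonical starts of RELA and NFKB2 lie 941 and 1595 bases downstream of their RefSeq starts. The windows of these 3 genes may therefore not be the promoters in use in these cells, which also limits the absence of a match in RELA and NFKB2.

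Total counts were 18594867 to 28993487 per library, and levels are given as CPM, counts relative to library size, with library sizes scaled by TMM, a normalization for RNA composition. JUN RNA in vector cells was at 47.6 ± 10.5 CPM (SD, n = 3) with EtOH and 189.6 ± 4.15 with Dox, and in JUN cells at 1278 ± 187 with EtOH and 1248 ± 92.3 with Dox. YAP1 reads, which include the transgene as far as it matches, ranged in vector cells from 171 to 191 CPM with EtOH and from 216 to 273 with Dox, and in JUN cells from 210.5 to 249.3 with EtOH and from 208 to 365 with Dox. The log2 change with Dox was 0.4 ± 0.16 in vector cells (edgeR adjusted p = 0.0819) and 0.26 ± 0.16 in JUN cells (edgeR adjusted p = 0.308). With JUN alone it was 0.39 ± 0.16 (edgeR adjusted p = 0.0755). In vector cells every Dox library was above every EtOH library, and 3 of 22 other settings called the change (lowest edgeR adjusted p = 0.0276). The change with JUN alone was also called in 3 of 22 (lowest edgeR adjusted p = 0.00251). In the main setting, the YAP1 counts by themselves therefore did not show the induction at the threshold used. All 10 epithelial and basal marker genes checked had a mean of at least 1 CPM, and their summed level was 10326 to 10800 CPM with EtOH and 6478 to 7614 with Dox in vector cells, and 8668 to 10530.0 with EtOH and 5354 to 8550.3 with Dox in JUN cells. The epithelial sum joins genes that moved in opposite directions with JUN alone on the log2 scale. EPCAM (-1.76), KRT18 (-0.9) and KRT8 (-0.79) fell, and KRT14 (1.2), TP63 (0.94) and ITGA6 (0.47) rose (edgeR adjusted p of 0.0142 or lower). The other 4 did not pass an edgeR adjusted p under 0.05. Of 6 fibroblast and mesenchymal markers, 4 had a mean of at least 1 CPM, carried by PDGFRA at 111 CPM, and COL1A2 had at most 3 counts in every library. Their summed level was 111 to 125 CPM with EtOH and 122 to 162 with Dox in vector cells, and 112 to 126 with EtOH and 125 to 139 with Dox in JUN cells. DCN and LUM, genes of matrix proteoglycans on this list, rose with JUN by 1.56 ± 0.30 and 3.09 ± 0.29 on the log2 scale without induction and by 1.95 ± 0.32 and 2.55 ± 0.30 with it (edgeR adjusted p of 0.00103 or lower), alongside the members that rose with JUN. The other 3 tested genes of the list did not rise with JUN alone, with COL1A1 at -0.0039 ± 0.20, PDGFRA at -0.21 ± 0.11 and PDGFRB at -0.62 ± 0.48. None of these 3 passed an edgeR adjusted p under 0.05 with JUN, without or with induction. None of 4 endothelial markers had a mean of 1 CPM, CDH5 had at most 3 counts in every library, and PECAM1 was at 1.75 ± 0.241 CPM with EtOH and 0.0601 ± 0.104 with Dox in vector cells and at 0.471 ± 0.146 and 0.0862 ± 0.0754 in JUN cells. The summed endothelial level was 1.97 to 2.19 CPM in vector EtOH, 0.131 to 0.413 in vector Dox, 0.572 to 0.969 in JUN EtOH and 0.100 to 0.821 in JUN Dox. The leukocyte markers PTPRC and CD3E had at most 3 counts in every library, although the summed level of the 5 leukocyte markers, carried by CD68 and CD14, was 54.2 to 59.0 CPM with EtOH and 22.9 to 24.3 with Dox in vector cells, and 87.3 to 102.7 with EtOH and 52.2 to 72.5 with Dox in JUN cells. With JUN alone CD68 rose from 28.9 to 84.8 CPM (1.55 ± 0.12, edgeR adjusted p = 2.29e-07). CD14 fell from 26.85 to 10.1 CPM (-1.41 ± 0.21, edgeR adjusted p = 0.000109), so the rise of this sum was not shared by both genes. The part of all these cell type markers in the results was not tested, and in bulk RNA fewer cells of a type and less RNA per cell cannot be told apart. Deviations of genes from their group mean followed GC content most in 2 libraries of 1 group, with a correlation across genes of -0.36 in JUN Dox replicate 1 and 0.37 in JUN Dox replicate 3. The labels do not say whether replicates came from separate cultures, while the study's methods call them biological. If they were technical, the p-values would measure technical spread only.

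Differences were tested with edgeR's quasi-likelihood test on all 14775 genes, and a gene was called at a Benjamini-Hochberg adjusted p under 0.05. The comparisons ask how YAP5SA induction and JUN overexpression, alone and together, relate to the RNA of these genes. After YAP5SA induction in vector cells, 5 of the 10 members were called, 3 higher (TNFAIP3, NFKBIZ, NFKB2) and 2 lower (NFKBIA, BIRC3), where 30.1% of all tested genes were called (15.6% higher and 14.4% lower). In 6 of the 10 the groups did not overlap, against 43.9% of all genes. After JUN overexpression without induction, 7 members were called, all higher (NFKBIZ, TNFAIP3, BIRC3, REL, NFKBIA, NFKB2 and RELB), where 39.1% of all genes were called (20.1% higher, 18.9% lower). The groups did not overlap in 8 members and in 57.8% of all genes.

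In JUN cells, YAP5SA induction left 3 members called, with TNFAIP3 higher and NFKBIA and BIRC3 lower, where 21.4% of all genes were called (11.2% higher, 10.3% lower). The groups did not overlap in 5 members and in 39.3% of genes. Between JUN Dox and vector Dox, 7 members were called, 6 higher (NFKBIZ, TNFAIP3, REL, BIRC3, NFKBIA and RELB) and 1 lower (NFKBIE), where 35.6% of all genes were called (18.4% higher, 17.2% lower). The groups did not overlap in 8 members and in 43.4% of genes. RELA and NFKB1, which encode the subunits of the most common NF-kappaB dimer, were called in none of the comparisons. The median log2 fold change of the members was -0.08, 0.37, -0.14 and 0.50 in these comparisons, in the order given, and the median over all tested genes was between 0.00058 and 0.0072.

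**Figure D1:**
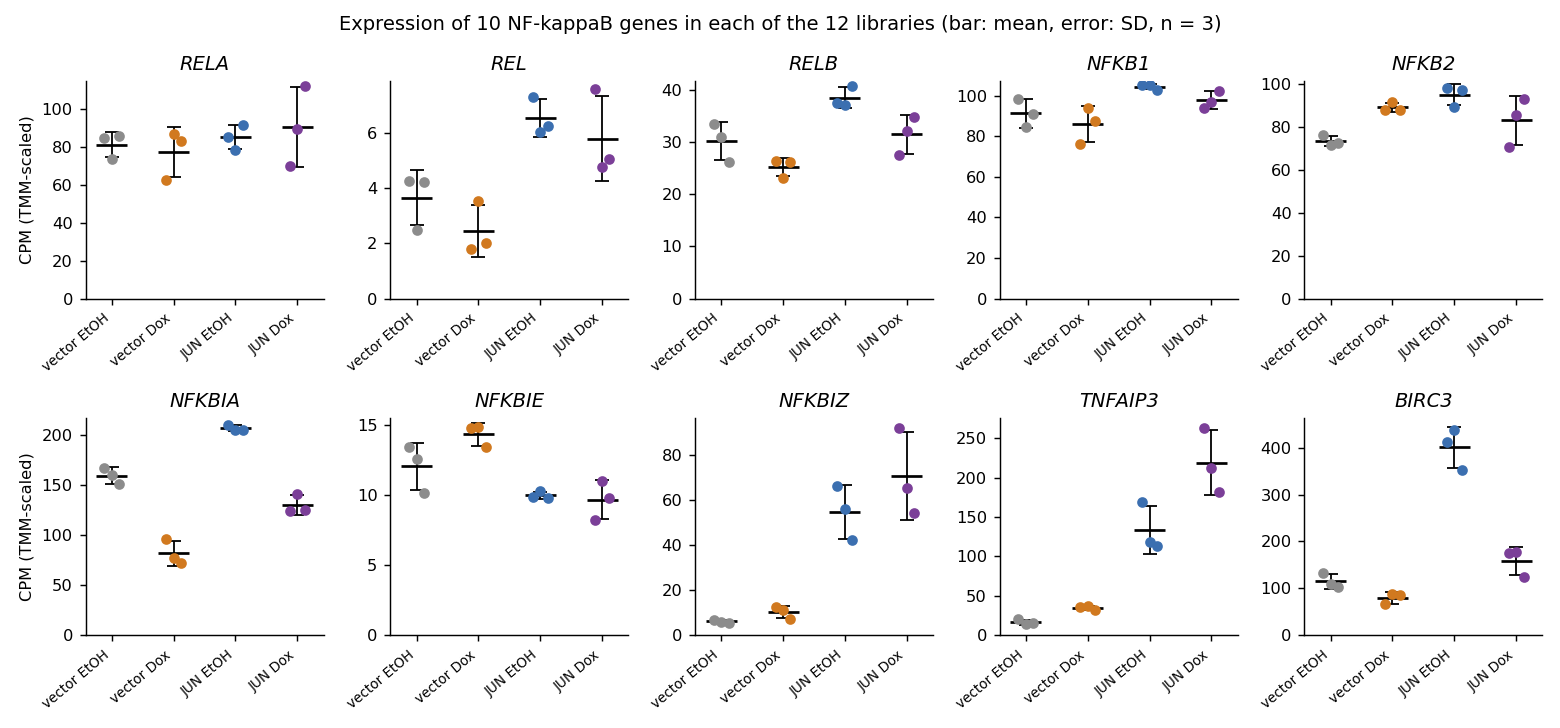
TMM-scaled CPM (y axis, from 0, a separate scale for each gene) of the 10 members in each library of the 4 groups on the x axis, with points for libraries, wide bars for means and error bars for the SD of 3 libraries. NFKBIA is lower with Dox in both vector and JUN cells, TNFAIP3 is higher with Dox and with JUN, BIRC3 peaks in JUN EtOH at 351.9 to 438 CPM, and the points of RELA overlap between all groups.

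The RELA gene (Entrez 5970, chr11:65421072-65430387, minus strand, GRCh37) encodes p65, the main transactivating subunit. Its RNA in vector cells was at 84.6, 73.8 and 85.8 CPM with EtOH and at 62.6, 86.7 and 83.1 with Dox, and in JUN cells at 85.4, 78.7 and 91.8 with EtOH and at 70.1, 89.4 and 112 with Dox. The ranges of all 4 groups overlapped, and the JUN Dox libraries were the widest apart. The highest log2 fold change, 0.23 ± 0.16 (SE) for JUN Dox against vector Dox, had an edgeR adjusted p of 0.267. The JUN Dox libraries with the lowest and the highest RELA level were those with the strongest GC trends in opposite directions, and RELA's transcript has a GC content of 58.6%. NFKB2, RELB and NFKB1 (GC content 61.2%, 64.9% and 50.1%) also rose from JUN Dox replicate 1 through 2 to 3. NFKBIZ and TNFAIP3 (46.2% and 49.3%) fell in that order, and the other members did neither. The part of the GC trend in the spread of these genes was not tested.

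NFKB1 (Entrez 4790, chr4:103422516-103538459, plus strand), the gene of the p105 precursor of p50, was in vector cells at 84.5 to 98.6 CPM with EtOH and 76.4 to 93.9 with Dox, and in JUN cells at 103 to 105.4 with EtOH and 94.1 to 102.5 with Dox. The JUN libraries lay above those of vector cells with the same treatment, by 0.19 ± 0.10 without and 0.19 ± 0.10 with induction on the log2 scale. Neither difference was called, with edgeR adjusted p-values of 0.119 and 0.135 (unadjusted 0.0602 and 0.0669). The approximate 95% intervals were 0.01 to 0.38 and 0.00 to 0.37, and they are slightly narrower than the test implies.

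NFKB2 (Entrez 4791, chr10:104155462-104162281, plus strand) encodes p100, the precursor of p52 and itself an inhibitor in the non-canonical branch of the pathway. It was at 76.1, 71.7 and 72.5 CPM in vector cells with EtOH and at 87.7, 91.6 and 88.0 in those with Dox. The JUN EtOH libraries were at 98.2, 89.3 and 97.4 CPM, and the JUN Dox libraries at 70.6, 85.6 and 93.1. Every vector Dox and every JUN EtOH library was above every vector EtOH library, while JUN Dox overlapped all other groups. NFKB2 rose by 0.28 ± 0.10 with induction in vector cells (edgeR adjusted p = 0.0486) and by 0.37 ± 0.10 with JUN alone (edgeR adjusted p = 0.00981). In JUN cells, the induction was -0.19 ± 0.10 and not called (edgeR adjusted p = 0.203). The call in vector cells was lost in 16 of 22 other settings of the analysis, with edgeR adjusted p-values of up to 0.143.

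RELB (Entrez 5971, chr19:45504722-45541450, plus strand) encodes the usual partner of p52. Vector cells had 33.5, 30.9 and 26.2 CPM with EtOH and 26.4, 23.2 and 26.1 with Dox, and JUN cells had 37.6, 37.2 and 40.9 with EtOH and 27.5, 32.2 and 34.8 with Dox. JUN EtOH stood above the other groups without overlap, and JUN Dox stood above vector Dox. RELB rose with JUN by 0.35 ± 0.12 without induction (edgeR adjusted p = 0.0267) and by 0.32 ± 0.12 with it (edgeR adjusted p = 0.0427). Both were small, and the first was lost without vector EtOH replicate 2 or 3 or any 1 of the JUN EtOH libraries (adjusted p up to 0.126) and the second in 9 of 22 other settings (adjusted p up to 0.144). With induction RELB was at -0.26 ± 0.12 in vector cells and -0.29 ± 0.12 in JUN cells, and neither was called (edgeR adjusted p = 0.108 and 0.091).

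REL (Entrez 5966, chr2:61108709-61158747, plus strand) encodes c-Rel, the subunit best known from lymphocytes, and was the least abundant member, with 41 to 166 counts per library. Vector cells had 4.26, 2.49 and 4.22 CPM of it with EtOH and 1.79, 3.51 and 2.02 with Dox, and JUN cells had 7.30, 6.02 and 6.24 with EtOH and 7.57, 4.75 and 5.04 with Dox. Every JUN library was above every vector library. REL rose by 0.82 ± 0.26 with JUN alone (edgeR adjusted p = 0.0213) and by 1.24 ± 0.27 with JUN under induction (edgeR adjusted p = 0.0028). The first call was lost without vector EtOH replicate 2 or JUN EtOH replicate 1 (adjusted p = 0.0949 and 0.0824). The difference of -0.60 ± 0.28 with induction in vector cells was not called (edgeR adjusted p = 0.125), but passed without vector EtOH replicate 2 or vector Dox replicate 2 (adjusted p = 0.0494 and 0.0211).

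NFKBIA (Entrez 4792, chr14:35870719-35873955, minus strand) encodes IkappaB-alpha, the fast feedback inhibitor that NF-kappaB re-makes and that takes dimers back out of the nucleus. Vector cells had 167, 161 and 151 CPM with EtOH and 95.8, 77.5 and 71.9 with Dox. In JUN cells it was at 210.3, 205 and 205 CPM with EtOH and at 124, 142 and 125 with Dox. None of the 4 groups overlapped another, and both Dox groups were below both EtOH groups. NFKBIA fell by 0.97 on the log2 scale with induction in vector cells (SE 0.11, edgeR adjusted p = 1.03e-05) and fell by 0.67 in JUN cells (SE 0.11, edgeR adjusted p = 0.000474). It rose with JUN by 0.37 ± 0.11 without induction (edgeR adjusted p = 0.0134) and by 0.67 ± 0.11 with it (edgeR adjusted p = 0.000255). The first of these rises was lost without vector EtOH replicate 3 (adjusted p = 0.0591).

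NFKBIE (Entrez 4794, chr6:44225903-44233288, minus strand) encodes IkappaB-epsilon, a slower feedback inhibitor of RELA and c-Rel dimers. Its level in vector cells was 13.4, 12.6 and 10.2 CPM with EtOH and 14.8, 14.9 and 13.4 with Dox, and in JUN cells 9.90, 10.3 and 9.81 with EtOH and 8.22, 11.0 and 9.84 with Dox. It was the only member called lower with JUN overexpression, in the comparison under induction, where every JUN Dox library was below every vector Dox library. There it fell by 0.56 on the log2 scale (SE 0.13, edgeR adjusted p = 0.00478). Without induction the difference was -0.27 ± 0.14 and was not called (edgeR adjusted p = 0.121). The 2 differences were not shown to be unequal, since the interaction was -0.29 ± 0.19 (edgeR adjusted p = 0.772).

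NFKBIZ (Entrez 64332, chr3:101568358-101579866, plus strand) encodes IkappaB-zeta, a nuclear member of the family that is itself induced by IL-1 and by bacterial products and that acts as a coactivator for part of the NF-kappaB targets. In vector cells it was at 6.80, 6.09 and 5.47 CPM with EtOH and at 12.6, 11.0 and 7.35 with Dox, and in JUN cells at 66.3, 56.3 and 42.2 with EtOH and at 92.4, 65.7 and 54.6 with Dox. Each JUN library exceeded each vector library, whereas the ranges of JUN EtOH and JUN Dox overlapped. NFKBIZ rose with JUN by 3.16 ± 0.24 (8.95-fold, edgeR adjusted p = 1.54e-07) without induction and by 2.78 ± 0.23 (6.85-fold, edgeR adjusted p = 3.68e-07) with it. With induction it rose by 0.75 ± 0.24 in vector cells (edgeR adjusted p = 0.0274), a call that was lost when vector EtOH replicate 2 or 3 or vector Dox replicate 1 or 2 was left out (adjusted p up to 0.112) and without the filter on low counts (adjusted p = 0.0503). In JUN cells the induction of 0.37 ± 0.21 was not called (edgeR adjusted p = 0.236). The annotated span of NXPE3 on the same strand runs into the longer NFKBIZ isoforms but not into the canonical transcript, and NXPE3 was at 0.24 ± 0.12 with JUN alone, which was not called (edgeR adjusted p = 0.123), and rose by 0.62 ± 0.12 with JUN under induction (edgeR adjusted p = 0.00112).

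TNFAIP3 (Entrez 7128, chr6:138188396-138204449, plus strand) encodes A20, a ubiquitin-editing enzyme that shuts off signalling from TNF and IL-1 receptors. In vector cells it was at 20.1, 13.7 and 14.9 CPM with EtOH and at 35.7, 37.1 and 31.5 with Dox. In JUN cells it was at 169, 119 and 114 CPM with EtOH and at 264, 212 and 182 with Dox. The groups followed one another without any overlap, from vector EtOH through vector Dox and JUN EtOH to JUN Dox. TNFAIP3 rose by 1.09 ± 0.18 with induction in vector cells (2.13-fold, edgeR adjusted p = 0.000382) and by 0.71 ± 0.17 in JUN cells (1.64-fold, edgeR adjusted p = 0.00778). It rose with JUN by 3.03 ± 0.19 without induction (8.19-fold, edgeR adjusted p = 2.94e-08) and by 2.66 ± 0.18 with it (6.31-fold, edgeR adjusted p = 6.64e-08). All 4 calls were kept in every other setting run.

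The start of TNFAIP3 overlaps WAKMAR2, a long non-coding RNA gene on the opposite strand with a mean of 156.2 counts per library, against 2326 for TNFAIP3. WAKMAR2 was at 1.55 ± 0.538 CPM (SD, n = 3) with EtOH and 2.08 ± 0.191 with Dox in vector cells, and at 8.86 ± 2.32 with EtOH and 14.6 ± 1.39 with Dox in JUN cells. It rose with JUN by 2.54 ± 0.24 without induction (edgeR adjusted p = 1.34e-06). The library kit does not mark strand, so reads from the shared stretch cannot be told apart.

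BIRC3 (Entrez 330, chr11:102188215-102210134, plus strand) encodes cIAP2, a ubiquitin ligase that works at the TNF receptor and keeps the non-canonical kinase NIK low. In vector cells it was at 134, 109 and 102 CPM with EtOH and at 65.8, 88.5 and 85.3 with Dox. In JUN cells it was at 412, 438 and 351.9 CPM with EtOH and at 174, 177 and 124 with Dox. The JUN EtOH libraries were above all others, and only vector EtOH and JUN Dox overlapped. BIRC3 rose by 1.80 ± 0.16 with JUN alone (3.49-fold, edgeR adjusted p = 9.19e-07) and by 0.99 ± 0.16 with JUN under induction (1.99-fold, edgeR adjusted p = 0.000234). With induction it fell by 0.52 in vector cells (SE 0.16, edgeR adjusted p = 0.0207) and fell by 1.34 in JUN cells (SE 0.16, edgeR adjusted p = 3.15e-05). The fall in vector cells was not called without vector EtOH replicate 1 (-0.40, adjusted p = 0.106) or vector Dox replicate 1 (-0.41, adjusted p = 0.0617). The span of BIRC3 also overlaps an unnamed long non-coding RNA gene on the opposite strand, whose level was not analysed here.

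**Figure D2:**
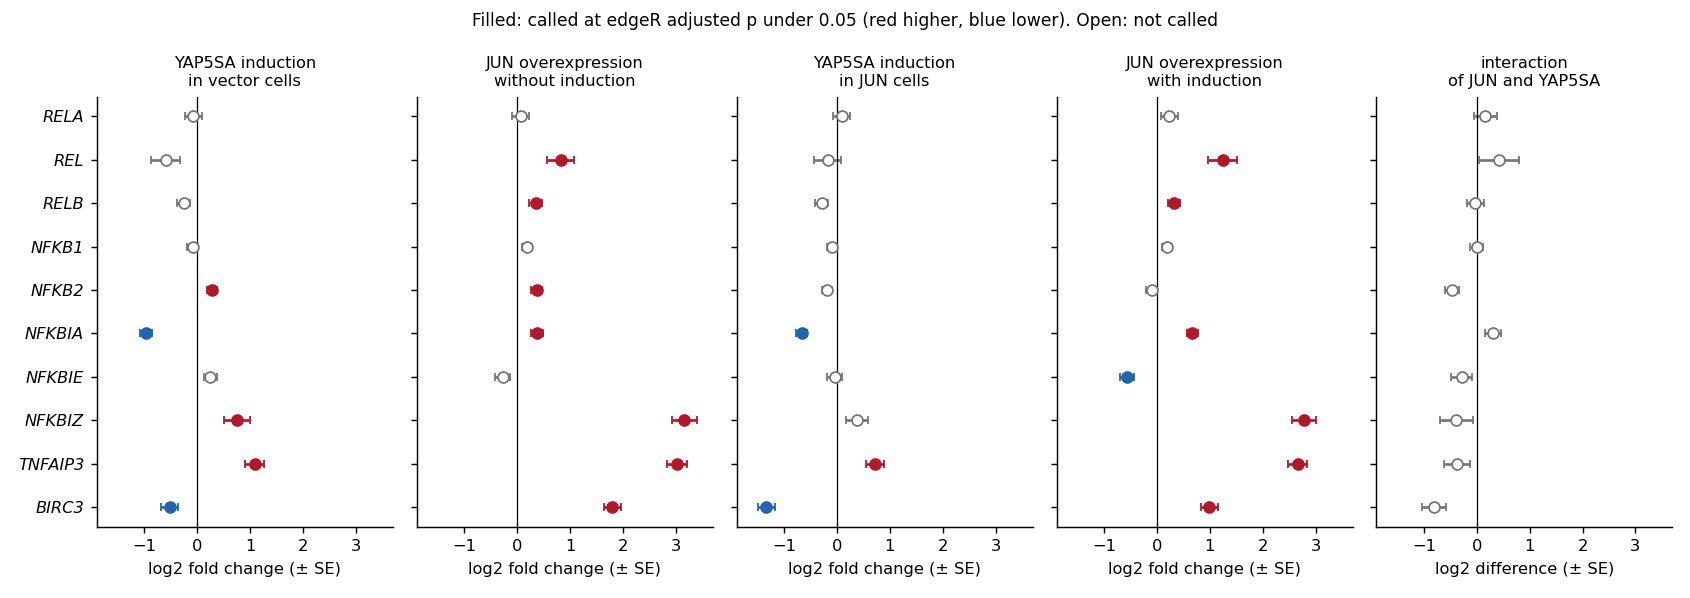
Log2 fold change of each member (x axis, error bars are the SE) in the 4 pairwise comparisons and, in the last panel, the log2 difference that is the interaction, with filled points for genes called at an edgeR adjusted p under 0.05. TNFAIP3 is above 0 and NFKBIA and BIRC3 are below 0 in both induction panels, NFKBIZ and TNFAIP3 have the widest rises in both JUN panels, and no point is filled in the interaction panel.

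To set genes side by side, levels were divided by the length of the canonical transcript in kilobases. The annotation used for counting is not given, so these lengths may differ from those of the counted gene models, and the order depends on them. By this measure NFKBIA was the most abundant member in all 4 groups, with 102 ± 5.38 CPM per kb in vector EtOH and 83.5 ± 6.34 in JUN Dox (n = 3). In vector EtOH it was followed by RELA at 32.3 ± 2.63, NFKB2 at 24.4 ± 0.771, NFKB1 at 22.5 ± 1.73, BIRC3 at 16.7 ± 2.44, RELB at 13.4 ± 1.64, NFKBIE at 5.15 ± 0.719, TNFAIP3 at 3.49 ± 0.732, NFKBIZ at 1.56 ± 0.170 and REL at 0.329 ± 0.0906 CPM per kb. Only the neighbours NFKB2 and NFKB1, and BIRC3 and RELB, overlapped in this order. In JUN EtOH, BIRC3 moved to the second place at 58.3 ± 6.43 CPM per kb, above RELA at 33.9 ± 2.60 without overlap. In JUN Dox, TNFAIP3 held the second place at 47.0 ± 8.85 CPM per kb, and from there down to RELB at 14.0 ± 1.64 each gene overlapped its neighbour. REL stayed last in all 4 groups.

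The question whether JUN changes the response of these genes to YAP5SA was tested by the interaction, which is the log2 fold change on induction in JUN cells less the one in vector cells. It was called by edgeR in 0 of the 10 members, where 1.12% of all tested genes were called. At an unadjusted p under 0.05 it was 2 members, BIRC3 and NFKB2, where 9.0% of all genes passed, and with DESeq2 it was BIRC3 alone, where 2.29% of all genes were called. For BIRC3, the induction was lower in JUN cells by 0.81 on the log2 scale (a difference of -0.81 ± 0.22, 95% interval -1.25 to -0.38), with an adjusted p of 0.118 in edgeR and 0.0248 in DESeq2. For NFKB2, the difference was -0.47 ± 0.14 (95% interval -0.75 to -0.19), with an adjusted p of 0.175 in edgeR and 0.0636 in DESeq2. Both passed in edgeR once a smooth GC trend was removed from each library, with adjusted p-values of 0.0474 for BIRC3 and 0.0251 for NFKB2, and BIRC3 passed without vector Dox replicate 1 (adjusted p = 0.0313).

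For the other members the interaction was not detectable at this spread. It was 0.30 ± 0.15 for NFKBIA (95% interval 0.00 to 0.60), -0.38 ± 0.25 for TNFAIP3 (-0.86 to 0.11), -0.39 ± 0.31 for NFKBIZ (-1.0 to 0.23) and 0.42 ± 0.38 for REL (-0.32 to 1.15). The narrowest interval was that of NFKB1, from -0.27 to 0.26, and all these intervals are approximate. The interval of NFKBIZ does not exclude a difference as large as its induction of 0.75 in vector cells.

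**Figure D3:**
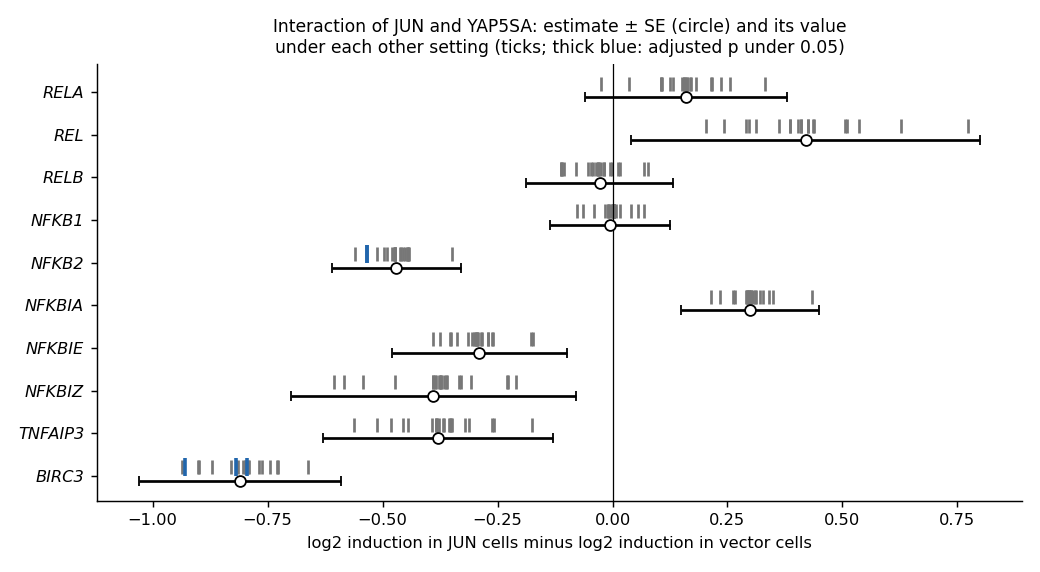
Interaction of each member (x axis, log2 induction in JUN cells minus log2 induction in vector cells), with the circle and its error bar for the estimate and SE and a tick for each other setting of the analysis, blue where its adjusted p was under 0.05. All ticks of BIRC3 and NFKB2 lie below 0 and some are blue, whereas the ticks of RELA, RELB and NFKB1 lie on both sides of 0.

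Other genes of the pathway were read from 5 lists with 91 genes, of which 79 passed the filter. Their counts stand against the 30.1%, 39.1%, 21.4% and 35.6% of all tested genes that were called in the 4 comparisons, in the order used here. By direction, these shares were 15.6% higher and 14.4% lower, 20.1% and 18.9%, 11.2% and 10.3%, and 18.4% and 17.2%. Of the receptors, 11 of 15 were tested. Called genes among them were 1 higher and 5 lower after induction in vector cells, 5 higher and 0 lower with JUN alone, 1 higher and 7 lower after induction in JUN cells, and 7 higher and 1 lower with JUN under induction, which is 54.5%, 45.5%, 72.7% and 72.7% of those tested. TLR6, a partner of TLR2 in sensing bacterial lipopeptides, went from 10.8 to 2.21 CPM with induction in vector cells (log2 -2.29 ± 0.16, edgeR adjusted p = 7.19e-08) and from 14.5 to 6.29 in JUN cells (-1.21 ± 0.14, edgeR adjusted p = 2.93e-05). TNFRSF1A, the main TNF receptor, went from 150.2 to 94.0 CPM in vector cells (-0.68 ± 0.10, edgeR adjusted p = 0.000159). TNFRSF12A, the TWEAK receptor, was the receptor that rose with induction, from 167 to 325 CPM (0.96 ± 0.11, edgeR adjusted p = 8.99e-06). IL1R1, which binds IL-1, rose with JUN from 14.98 to 60.4 CPM (2.01 ± 0.15, edgeR adjusted p = 2.15e-07).

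Of 10 ligand genes, 5 passed the filter. They were called higher in 2 and lower in 1 after induction in vector cells, 3 and 0 with JUN alone, 1 and 1 after induction in JUN cells, and 3 and 0 with JUN under induction. IL1A, which encodes a ligand of IL1R1, was at 29.4 ± 3.38 CPM (SD, n = 3) with EtOH and 83.0 ± 4.09 with Dox in vector cells, and at 279 ± 77.7 with EtOH and 454 ± 88.8 with Dox in JUN cells. It was called higher in all 4 comparisons, by 1.5 ± 0.18, 3.25 ± 0.19, 0.70 ± 0.17 and 2.45 ± 0.18 for induction in vector cells, JUN alone, induction in JUN cells and JUN under induction (edgeR adjusted p of 0.00907 or lower), and the third of these calls was lost in 1 of 22 other settings. IL1B, the gene of the other main IL-1 cytokine, rose from 29.6 to 901 CPM with JUN alone (4.92 ± 0.15, edgeR adjusted p = 4.54e-11) and from 49.3 to 1043 with JUN under induction (4.4 ± 0.15, edgeR adjusted p = 7.7e-11). With induction it rose by 0.73 ± 0.13 in vector cells (edgeR adjusted p = 0.00064), and its 0.21 ± 0.13 in JUN cells was not called (edgeR adjusted p = 0.267). TNFSF14, which encodes the ligand LIGHT, went the other way with induction, from 1.51 to 0.505 CPM in vector cells (-1.57 ± 0.38, edgeR adjusted p = 0.00577) and from 3.65 to 1.44 in JUN cells (-1.37 ± 0.31, edgeR adjusted p = 0.00554), and it rose with JUN by 1.27 ± 0.31 without and 1.48 ± 0.38 with induction (edgeR adjusted p = 0.0049 and 0.00798). TNF had at most 4 counts in any library, which is near the limit of 3 counts taken as the floor, and was not tested.

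All 24 kinase and adaptor genes were tested. They were called higher in 3 and lower in 4 after induction in vector cells, 10 and 0 with JUN alone, 2 and 2 after induction in JUN cells, and 10 and 2 with JUN under induction. These are 29.2%, 41.7%, 16.7% and 50% of the list, the first 3 of them near the shares of all genes with both directions counted together. With JUN alone, however, all calls of the list were higher, where 20.1% of all genes were called higher and 18.9% lower. IRAK2, a kinase of the IL-1 and Toll-like receptor complex, had the widest change of the list in each pairwise comparison. With JUN it rose from 4.33 to 34.6 CPM without induction (2.99 ± 0.14, edgeR adjusted p = 1.89e-09) and from 1.095 to 9.42 with it (3.09 ± 0.17, edgeR adjusted p = 7.96e-09). With induction it fell from 4.33 to 1.095 CPM in vector cells (-1.98 ± 0.18, edgeR adjusted p = 1.21e-06) and from 34.6 to 9.42 in JUN cells (-1.88 ± 0.13, edgeR adjusted p = 2.32e-07). BIRC2, the close relative of BIRC3, went from 31.6 to 55.1 CPM with JUN under induction (0.80 ± 0.11, edgeR adjusted p = 7.16e-05). MAP3K14, the gene of NIK, rose with induction in vector cells from 6.16 to 10.6 CPM (0.79 ± 0.24, edgeR adjusted p = 0.0233), a call that 5 of 22 other settings lost.

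Of the 13 further inhibitors, all tested, 2 were higher and 6 lower after induction in vector cells, 8 and 1 with JUN alone, 1 and 4 after induction in JUN cells, and 8 and 1 with JUN under induction (61.5%, 69.2%, 38.5% and 69.2% of the list). BCL3, a nuclear IkappaB protein, fell with induction from 44.5 to 11.4 CPM in vector cells (-1.97 ± 0.13, edgeR adjusted p = 5.4e-08) and from 54.5 to 27.3 in JUN cells (-0.99 ± 0.13, edgeR adjusted p = 5.54e-05). NFKBIB, which encodes IkappaB-beta, rose in vector cells from 22.3 to 37.3 CPM (0.74 ± 0.16, edgeR adjusted p = 0.00235). ZC3H12A, an RNase that degrades inflammatory transcripts, rose with JUN alone from 61.2 to 210.6 CPM (1.78 ± 0.16, edgeR adjusted p = 1.25e-06). CYLD, a deubiquitinase, rose with JUN under induction from 25.4 to 64.1 CPM (1.34 ± 0.11, edgeR adjusted p = 5.89e-07).

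Among 29 target genes known from other systems, 26 were tested. They were called higher in 11 and lower in 4 after induction in vector cells, 22 and 2 with JUN alone, 9 and 7 after induction in JUN cells, and 16 and 4 with JUN under induction, which is 57.7%, 92.3%, 61.5% and 76.9% of those tested. SOD2, the mitochondrial superoxide dismutase, went from 829 to 315 CPM with induction in vector cells (-1.39 ± 0.22, edgeR adjusted p = 0.000188) and from 2844 to 831 in JUN cells (-1.77 ± 0.22, edgeR adjusted p = 4.22e-05). TNFAIP2, a TNF response gene, went from 149 to 41.9 CPM in vector cells (-1.83 ± 0.17, edgeR adjusted p = 1.8e-06). CXCL1, a chemokine for neutrophils, rose with JUN alone from 52.3 to 901 CPM (4.11 ± 0.34, edgeR adjusted p = 4.75e-07). GADD45B and PTX3, a stress gene and a soluble pattern receptor, rose with induction in vector cells from 11.4 to 81.7 CPM (2.84 ± 0.26) and from 9.88 to 99.4 CPM (3.33 ± 0.16), both called.

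The median log2 fold changes of the lists with JUN alone were 0.28 for receptors, 1.27 for ligands, 0.22 for kinases and adaptors, 0.35 for further inhibitors and 1.29 for targets, against 0.00058 over all tested genes. After induction in vector cells they were -0.31, -0.54, -0.07, -0.12 and 0.36, against 0.0072 over all genes. TLR2 and CSF2 had at most 3 counts in every library of both vector groups, and BCL2A1 in vector EtOH. The medians were therefore also taken without genes at this limit in both groups compared. Genes at this limit in the control group only were kept and set at the 3-count floor. The receptor median after induction in vector cells was then -0.50 and the target median 0.21. The medians with JUN alone were unchanged to 2 decimals. After induction in JUN cells the medians were -0.44, -1.01, 0.00, -0.06 and 0.30, and with JUN under induction they were 0.70, 1.48, 0.19, 0.58 and 0.99, against 0.0031 and 0.003 over all genes.

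**Figure D4:**
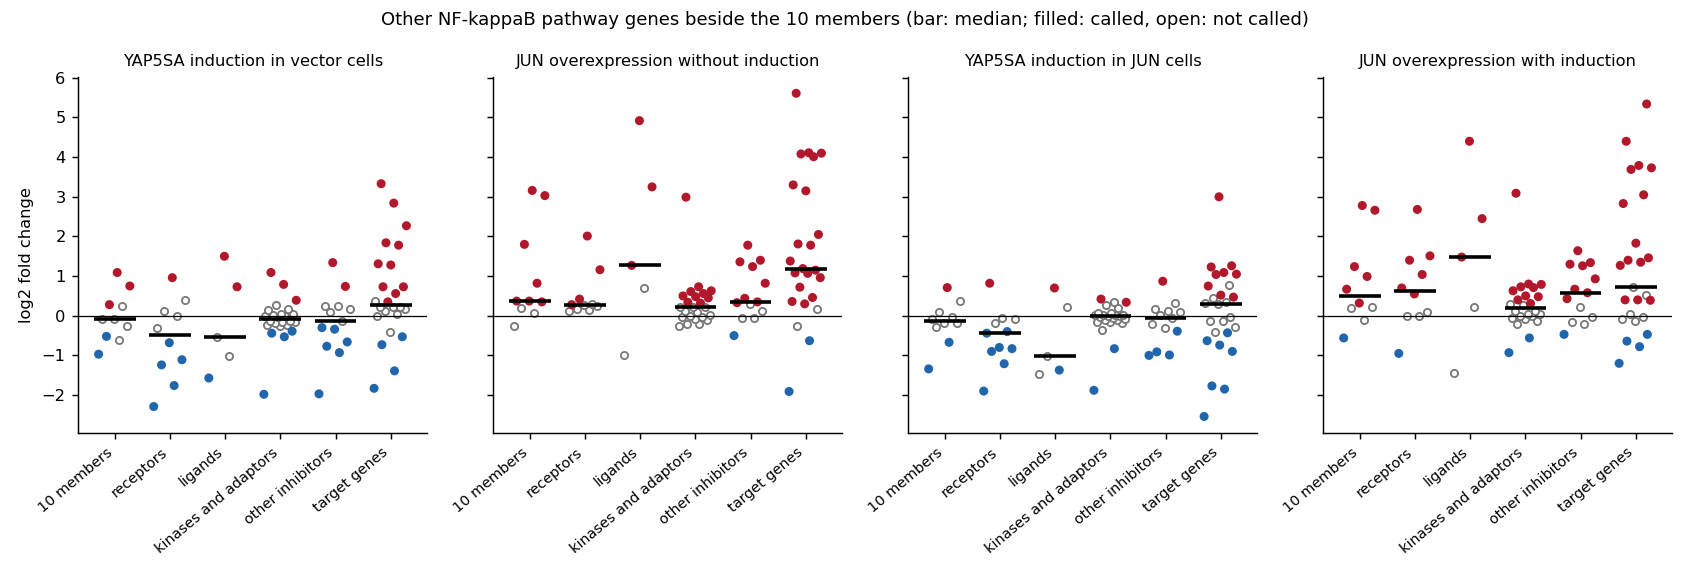
Log2 fold change (y axis) of the 10 members and of the genes of the 5 pathway lists (x axis) in the 4 pairwise comparisons, each point a gene, filled where called at an edgeR adjusted p under 0.05, with a bar at the median of the points. Genes at or under 3 counts in every library of a group compared (TLR2, CSF2, BCL2A1) are left out of that panel. The bars can therefore differ from the medians given in the text. With JUN alone most target points are filled and above 0 (22 of the 26 tested targets were called higher, counting those left out of the panel), and after induction in vector cells receptors and further inhibitors hold more lower than higher calls.

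The genes whose pattern was nearest to that of a member were sought among 11404 genes whose mean was 5 CPM or more, by the root mean square difference of the 4 group means of log2 CPM, each gene centred on its own mean. These are likenesses over 4 groups only. Nearest to NFKBIZ was TNFAIP3 itself, at 0.197 log2 units, followed by WAKMAR2 (0.233) and PRDM1 (0.293), a transcriptional repressor. Nearest to TNFAIP3 were IL1A (0.139), NFKBIZ (0.197) and PLD5 (0.213). The span from the lowest to the highest group mean was 3.75 log2 units for TNFAIP3 and 3.49 for NFKBIZ.

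BIRC3, with a span of 2.33 log2 units, was nearest to FAM20C (0.0977), ZC3H12C (0.113) and CA12 (0.115). NFKBIA, with a span of 1.35, was nearest to MINDY1 (0.0319), KIF13B (0.0329) and RSPH3 (0.0341). REL, with a span of 1.44, was nearest to AHNAK (0.0469), HGSNAT (0.048) and HSPG2 (0.0534). No member was among the 3 nearest genes of BIRC3, NFKBIA or REL. RELA, RELB, NFKB1, NFKB2 and NFKBIE had spans of 0.21, 0.61, 0.29, 0.37 and 0.57, under the minimum of 1 set for this search.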

How the data were processed

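RNA of MCF10A cells carrying the iYAP5SA allele was measured in 12 libraries, 3 in each of 4 groups taken from the sample titles. The deposited values are raw read counts per gene that the authors did not normalize. Per the study's methods, poly(A) RNA was sequenced as single-end reads that the authors trimmed with Cutadapt, aligned to hg19 with Bowtie2 at default settings and counted with countOverlaps. The submitters' processing notes name cutadapt 4.2 and Bowtie2 2.3.5.1, and the study's methods another Bowtie2 release. The gene annotation is not given in the sources used here. Bowtie2 does not split reads at introns, so genes rich in short exons lose reads in each library alike. The kit does not mark strand, so overlapping and antisense genes can share reads.

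Symbols from a RefSeq gene table matched 99.4% of the Entrez IDs. Positions are GENCODE v44lift37 canonical transcripts on GRCh37, 1-based. Promoter windows are RefSeq on GRCh38.p14 and were placed on GRCh37 only by exact match.

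Counts were tested with edgeR 4.0.16 under R 4.3.3 (TMM, filterByExpr with a minimum count of 10 and a minimum total of 15, 1 robust quasi-likelihood fit of all 12 libraries, biological coefficient of variation 12.5%), with Benjamini-Hochberg adjustment over 14775 genes. Intervals of fold changes are ± 1.96 SE. Totals of 18594867 to 28993487 counts set the precision, and replicates differed beyond counting noise (chi-square per degree of freedom 7.89 to 60.1 for pairs within a group). Counts carry no molecular identifiers, and a count of 3 was taken as the floor, for counting error only. The scripts were tested on simulated data with known changes.

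The members and gene lists were chosen with earlier results of these data known. Named genes were the members, JUN, YAP1, genes overlapping a member, the 3 nearest genes of a member whose group means span at least 1 log2 unit and, for each list and comparison, the 2 highest and 2 lowest called genes averaging 5 CPM or more, of which examples are printed. TNF, TNFSF14, TLR2, CSF2, BCL2A1, IL6, LIF and the single cell type markers were named after their values were seen. A further cell type marker is not reported here. The settings varied were the size factors (RLE, upper quartile, library totals), the filter on low counts (none, or a mean of at least 5 CPM), DESeq2 1.42.0, a GC offset, the replicate number as a block, the libraries in the fit, and each library left out in turn.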

Additional observations from a re-analysis of the deposited data

Results flagged for a closer look

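The interaction, which is the log2 fold change on induction in JUN cells less the one in vector cells, was tested with edgeR. It passed at an adjusted p under 0.05 for JUN and for 10 of the 79 tested genes of the pathway lists, where 1.12% of all tested genes passed. For the members it passed in 0 of 10, and at that share a set of this size does not set them apart. JUN itself had a difference of -2.03 ± 0.22 (edgeR adjusted p = 0.000133). Its induction was 1.99 in vector cells and -0.035 in the cells with the JUN vector. JUN reads include those of the JUN vector as far as it matches, and JUN EtOH was already at 1278 ± 187 CPM (SD). The rise in vector cells, from 47.6 to 189.6 CPM, would be smaller than this SD. The difference for JUN therefore cannot show whether JUN overexpression changes the induction of the cells' own JUN gene.

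Among the receptors, TLR4 differed by -1.19 ± 0.21 and TLR6 by 1.09 ± 0.21, so that the fall of TLR6 was smaller in JUN cells. TRAF2, an adaptor of TNF receptors, differed by -0.67 ± 0.15, and BCL3, a nuclear IkappaB protein, by 0.97 ± 0.18. Among the target genes, PTX3 differed by -2.28 ± 0.21, GADD45B by -1.74 ± 0.35, SDC4, a syndecan, by -1.11 ± 0.20 and ICAM1, an adhesion molecule for leukocytes, by -0.99 ± 0.18. LIF, a cytokine of the IL-6 family, differed by -1.51 ± 0.34 (edgeR adjusted p = 0.0463), and IL6, at a mean of 2.17 CPM, by 2.63 ± 0.50 (edgeR adjusted p = 0.0151). Neither was recomputed under the other settings. Of the remaining calls, that of TRAF2 was lost in 13 of 21 other settings, that of GADD45B in 8 and that of TLR6 in 4, and those of BCL3 and ICAM1 in 1 each.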

How the results depend on the processing

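Over the members, 1013 of 1085 values kept their direction and side of the threshold, 40 lost a call, 11 gained one and 21 changed sign, and none of the latter was a called value. Over JUN, YAP1 and the other named genes these counts were 1837, 100, 7 and 4 of 1948. The members called after induction in vector cells, 5 in the report, were 3 without the filter and 2 to 5 when a library was left out (2 without vector Dox replicate 1). In the interaction, 2 members were called with the GC offset and 2 with the replicate block and GC offset, 1 with DESeq2 and 0 to 1 without a library. Over all genes, the counts without a library were 3823 to 6765 for JUN alone, lowest without JUN EtOH replicate 1, 2083 to 3861 for induction in JUN cells, lowest without JUN EtOH replicate 2, and 97 to 242 for the interaction, lowest without vector EtOH replicate 3. DESeq2 called 340 genes in the interaction, against 165 with edgeR, and JUN under induction gave 3439 genes with only its own libraries, against 5267. The causes of these shifts were not tested.

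The values that changed sign were small and not called. With 1 library left out, RELA ranged from -0.168 to 0.0533 for induction in vector cells, from -0.0958 to 0.241 for induction in JUN cells and from -0.0248 to 0.332 in the interaction, NFKBIE from -0.141 to 0.0561 for induction in JUN cells, and NFKB2 from -0.189 to 0.00893 for JUN under induction. In the interaction, RELB ranged from -0.109 to 0.077 and NFKB1 from -0.0774 to 0.0691, and NFKB1 was 0.0161 with upper-quartile factors, 0.00415 with library totals, 0.00339 without the filter, 0.00179 with the GC offset and 0.00313 with the replicate block and GC offset. JUN ranged from -0.151 to 0.0352 for induction in JUN cells, and YAP1 from -0.364 to 0.0323 in the interaction, again with 1 library left out.

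The main fit did not take the replicate numbers to pair the libraries, and the labels do not say whether they do. The deviations of libraries with the same number from their group means had correlations of -0.23 to 0.28, -0.26 to 0.10 and 0.07 to 0.47 for numbers 1, 2 and 3. Among libraries of the other groups, 7 of 12 libraries correlated best with their own number, although the other numbers together offered more candidates. These values do not settle whether the libraries are paired. With the replicate block, NFKBIZ passed for induction in JUN cells (0.36, edgeR adjusted p = 0.0256), and NFKB2 for induction in vector cells (0.0565) and RELB for JUN under induction (0.0557) did not. With 41 to 166 counts per library, REL is the member that depth limits most.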
